A study of Mus musculus with 4 samples.

Results

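The immunity-related GTPases, a family of interferon-inducible proteins that bind and split GTP, were followed here through 10 mouse genes: Irgm1, Irgm2, Igtp, Iigp1, Tgtp1, Tgtp2, Gm4841, Gm12185, Gm4951 and F830016B08Rik. The 10 genes were found by NCBI gene ID among the 27179 genes of the count table, and all 10 passed the filter on low counts. They were selected on their change with IFN-γ in these same libraries, so their IFN-γ values are given as a description, without a test. Their change with hypoxia was not what chose them.

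The cells were MC38, a mouse colon carcinoma line, wild-type in genotype. The 4 conditions had 1 library each: untreated control under normoxia, untreated control under hypoxia, IFN-γ under normoxia and IFN-γ under hypoxia. Normoxia was 20% oxygen and hypoxia 1.5%, and the study's methods give 5 ng/mL IFN-γ for 24 h for most experiments, while the labels of these libraries give neither dose nor time. Total counts lay between 34302971 and 34537939 per library, so the deepest library exceeded the shallowest by 0.685%. Markers of the labelled epithelial origin were mostly absent: of 9 epithelial markers, 5 or 6 had at most 3 counts in each library, among them Cdh1, Cdx1 and Cdx2 at 0 in every library. The summed level of these 9 genes was 2.48 to 3.26 CPM (counts scaled to library size, per 1000000 counts), of 6 leukocyte markers 0.438 to 1.42 CPM, of 3 endothelial markers 0.758 to 1.44 CPM and of 4 fibroblast markers 36.6 to 44.1 CPM, the last mostly from Pdgfra. The part of these marker levels in the results was not tested.

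Immunity-related GTPases defend mouse cells against microbes that live inside a membrane vacuole, such as Toxoplasma and Chlamydia. Effector members, among them Iigp1 (also Irga6), Tgtp1 and Tgtp2 (Irgb6), load onto the vacuole membrane and break it open. A regulatory group, Irgm1, Irgm2 and Igtp (Irgm3), sits on the cell's own membranes, keeps the effectors inactive there and is tied to autophagy. IFN-γ-induced promoters often carry DNA elements called GAS and ISRE, and the factor IRF1 binds elements of the ISRE type.

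Promoter sequences were examined because all 10 genes were high together in the IFN-γ libraries. Promoters from RefSeq (GRCm38.p6, 250 bases before to 50 bases after the start) were matched for 6 of the 10 genes: Irgm1, Gm12185, Tgtp1, Tgtp2, Igtp and Irgm2, all on chromosome 11. The ISRE was searched on both strands as GAAA, 2 bases of any kind and GAAA, and the GAS as TTC, 3 bases of any kind and GAA, and matches of one did not overlap those of the other in these promoters. The 150 bases before each start are shown 5′ to 3′ on the gene's strand, with the matches in capitals. They lie at chr11:48871421-48871570 (Irgm1), chr11:48927183-48927332 (Gm12185), chr11:48992247-48992396 (Tgtp1) and chr11:49064213-49064362 (Tgtp2) on the minus strand, and at chr11:58199406-58199555 (Igtp) and chr11:58214827-58214976 (Irgm2) on the plus strand.
Irgm1: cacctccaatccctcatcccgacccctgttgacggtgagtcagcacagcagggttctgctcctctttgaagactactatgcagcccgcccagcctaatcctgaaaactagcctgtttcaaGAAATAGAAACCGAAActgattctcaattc
Gm12185: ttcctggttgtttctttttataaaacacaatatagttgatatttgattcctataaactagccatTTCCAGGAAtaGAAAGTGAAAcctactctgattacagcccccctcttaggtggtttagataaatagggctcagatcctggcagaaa
Tgtp1: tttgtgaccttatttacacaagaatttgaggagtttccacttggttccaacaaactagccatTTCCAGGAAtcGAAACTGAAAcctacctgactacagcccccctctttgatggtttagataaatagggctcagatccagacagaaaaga
Tgtp2: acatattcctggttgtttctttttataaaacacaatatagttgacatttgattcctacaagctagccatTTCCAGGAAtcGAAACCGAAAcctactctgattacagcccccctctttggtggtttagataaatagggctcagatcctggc
Igtp: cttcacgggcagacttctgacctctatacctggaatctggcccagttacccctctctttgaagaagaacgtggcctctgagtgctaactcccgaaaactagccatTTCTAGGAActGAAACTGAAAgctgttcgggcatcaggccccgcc
Irgm2: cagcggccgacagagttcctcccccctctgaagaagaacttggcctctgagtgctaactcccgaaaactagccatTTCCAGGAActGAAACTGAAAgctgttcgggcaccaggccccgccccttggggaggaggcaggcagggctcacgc

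The ISRE letters stood in all 6 promoters, and the GAS letters in 5, all but Irgm1. In each of the 5 promoters with both, the GAS string came first and its first letter lay 11 bases before that of the ISRE, as in Igtp at -45 and -34 and in Tgtp1 at -88 and -77 from the start. Irgm1 held 2 ISRE matches that overlap, at -30 and -24, and no GAS match in this window. Of all 32851 mouse promoters of this length, 3.44% held the ISRE letters and 8.30% the GAS letters, against 24.5% and 12.3% of the 204 promoters of other genes that IFN-γ raised at least 2-fold. The pair with this order and spacing on 1 strand, a feature chosen after the sequences were seen, stood in 5 promoters (0.0152% of all), and these were the 5 shown here. A match is a description of the letters, not a measured binding site.

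These promoters are partly copies of each other. The stretches of Gm12185 and Tgtp2 were 96.6% identical over 295 aligned bases, those of Igtp and Irgm2 93.6% over 264, and those of Tgtp1 and Tgtp2 91.9% over 161. Between the group of Tgtp genes with Gm12185 and the pair Igtp and Irgm2, 35 bases aligned in each comparison. Irgm1 aligned with the other 5 over 33 to 48 bases. In both groups the same letters, ctagccat, stood directly before the GAS match, so the spacing lay within a short stretch that the groups share. Whether this stretch was copied between the groups was not tested.

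The transcripts are copies of each other to a differing extent, which bears on how reads could be counted. Of the 31-base words in the annotated transcripts of Tgtp1, 83.2% also occurred in Tgtp2, and of those of Tgtp2 89.2% in Tgtp1. Gm12185 shared 28.5% of its words with any other gene, most of them with Gm5431. The other 7 genes lay between 2.21% (Irgm1) and 18.4% (Gm4841). How reads that match several genes were treated is not given in the sources used here, so the separate values of Tgtp1, Tgtp2 and Gm12185 are uncertain. The sum of Tgtp1 and Tgtp2 is given beside their single values. Gm12185 shared only 4.81% of its words with other members, so no sum of members settles its value.

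The regulatory genes were the ones already present without IFN-γ. Irgm1 (gene ID 15944), needed in mice for resistance to mycobacteria and other intracellular microbes, had 2131 counts in the control normoxic library, 2259 in the control hypoxic library, 13415 in the IFN-γ normoxic library and 13420 in the IFN-γ hypoxic library. Both IFN-γ libraries stood well above both controls, and the 2 IFN-γ libraries were nearly equal. The ratio of IFN-γ to control was 6.36-fold under normoxia (95% counting interval 6.07 to 6.66) and 5.99-fold under hypoxia (5.73 to 6.27), the smallest of the 10. All such intervals in the text compare 2 single libraries and cover counting error only, since no condition had a replicate. The libraries are from bulk RNA, so a larger share of responding cells and more transcript per cell cannot be told apart.

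Igtp (16145), whose protein sits on the endoplasmic reticulum, had 598 control counts under normoxia and 768 under hypoxia, against 11773 and 13826 with IFN-γ. Its ratio was 19.9-fold under normoxia (18.3 to 21.6) and 18.2-fold under hypoxia (16.9 to 19.6). Irgm2 (54396), found on the Golgi, had 543 and 646 control counts and 7594 and 9448 with IFN-γ. For both genes the hypoxic library was the higher of each pair. The Irgm2 ratio was 14.1-fold (12.9 to 15.4) under normoxia and 14.8-fold (13.6 to 16.0) under hypoxia.

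Among the effectors, Iigp1 (60440) had the most reads. It had 92 counts in the control normoxic and 88 in the control hypoxic library, against 6755 and 8711 with IFN-γ. The ratio was 74.2-fold (60.4 to 92.1) under normoxia and 99.9-fold (81.0 to 124.7) under hypoxia. The control libraries did not differ beyond counting error, and the hypoxic IFN-γ library was the highest of the 4.

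Tgtp1 (21822) had 35 and 31 control counts and 4164 and 4646 with IFN-γ, and Tgtp2 (100039796) had 35 and 56 control counts and 2054 and 2385 with IFN-γ. Because most of their sequence is shared, their sum is the safer value: 70 and 87 control counts and 6218 and 7031 with IFN-γ. That sum stood 89.7-fold higher under normoxia (70.9 to 115.2) and 81.6-fold higher under hypoxia (66.0 to 101.9). Taken singly, Tgtp1 had ratios of 120.1-fold and 151.2-fold and Tgtp2 of 59.3-fold and 43.0-fold.

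Gm4841 (225594, also Ifgga3) was close to absent without IFN-γ, at 8 and 10 counts, and reached 2379 and 3278. Its ratios of 300.3-fold (152.2 to 696.4) and 330.8-fold (179.6 to 690.4) were the largest that rested on more than 3 control counts in both pairs. Gm12185 (620913) had 2 and 6 control counts and 736 and 863 with IFN-γ, with ratios of 371.6-fold (102.5 to 3074) and 145.1-fold (66.4 to 396.6). With so few control reads the rank of Gm12185 against Gm4841 was not detectable at this depth.

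Gm4951 (240327, also Ifgga2) had 25 and 30 control counts and 589 and 649 with IFN-γ, ratios of 23.8-fold (16.0 to 37.1) and 21.8-fold (15.1 to 32.6). F830016B08Rik (240328, also Ifgga4) was the least counted gene, with 1 and 0 control counts and 37 and 54 with IFN-γ. Its normoxic ratio was 37.4-fold, with an interval of 6.30 to 1515, and in the hypoxic pair it was at least 18.2-fold higher when 3 counts per library are taken as the floor.

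**Figure D1:**
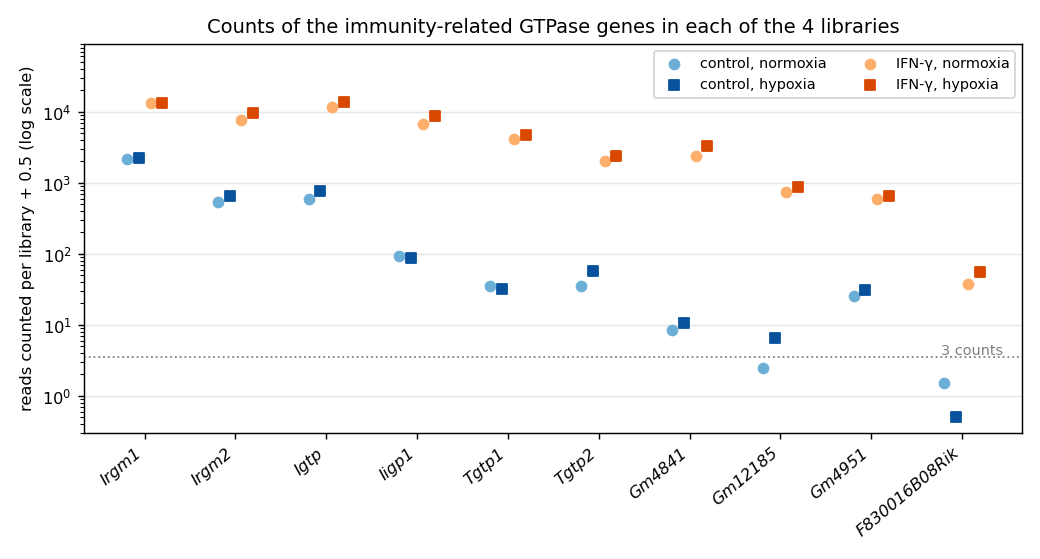
Reads counted on each of the 10 genes (horizontal axis) in each of the 4 libraries, with 0.5 added, on a log axis; 1 point is 1 library and the dotted line marks 3 counts. In every gene both IFN-γ libraries lie above both control libraries, and the control level falls from 2131 and 2259 counts for Irgm1 to 1 and 0 for F830016B08Rik.

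Put beside the other genes, the family stood at the upper end of the IFN-γ changes, as the way it was picked implies. All 10 genes were at least 2-fold higher in both pairs, where 2.92% of the 13580 tested genes were so in the normoxic and 2.82% in the hypoxic pair. All 10 were also among the genes with a higher value and an adjusted p under 0.05 in the fit over all 4 libraries, where 4.76% of tested genes were, a count that the choice of the genes on this same change fixes and from which nothing is read. The median log2 ratio of the 10 was 5.26 in the normoxic pair, against 1.77 for the 228 other genes that IFN-γ raised at least 2-fold and 0.00 for all tested genes. In the hypoxic pair it was 6.02, or 4.92 with F830016B08Rik at its bound, against 1.84 and -0.02.

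**Figure D2:**
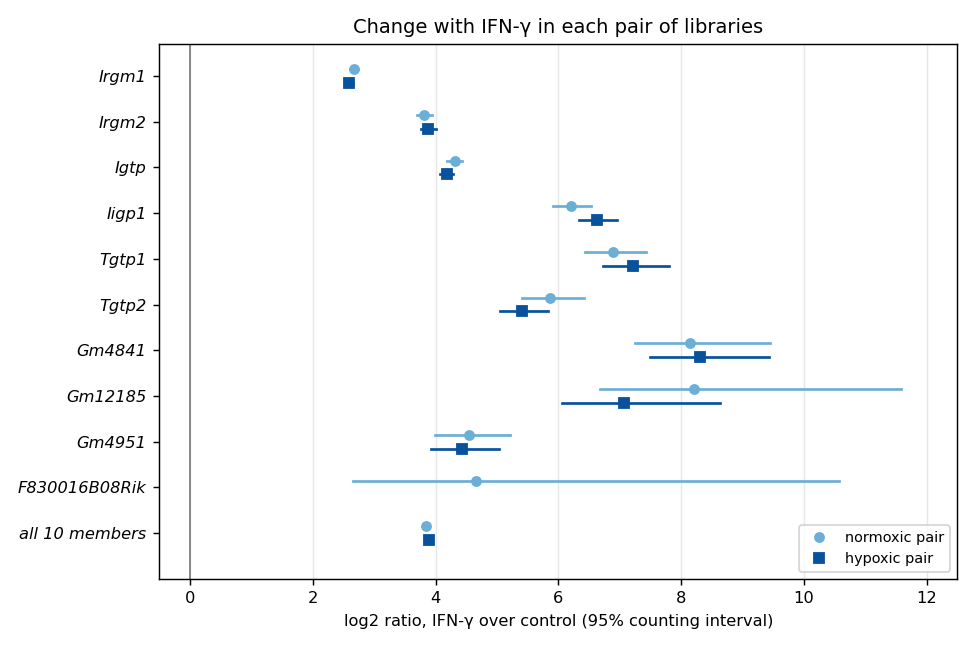
Log2 ratio of IFN-γ to control counts (horizontal axis) for each gene and for the sum of the 10, in the normoxic pair (circles) and the hypoxic pair (squares), with 95% counting intervals as bars; the hypoxic value of F830016B08Rik is left out because its control count was 0. Irgm1 lies lowest, at 2.67 and 2.58, and Gm4841, at 8.14 and 8.30, above the other genes with more than 3 counts in both control libraries.

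Throughout, the family stands for the 10 genes, without the related Ifi47 (Irgd) and Gm12250 (Irgb10) described below. Its sum was 3470 reads in the control normoxic library and 3894 in the control hypoxic library, against 49496 and 57280 with IFN-γ. The family thus held 0.0101% and 0.0113% of the reads without IFN-γ and 0.143% and 0.166% with it. The ratio of the sums was 14.4-fold (13.9 to 14.9) under normoxia and 14.8-fold (14.4 to 15.3) under hypoxia. Without Irgm1, the member with the most reads over the 4 libraries together, it was 27.2-fold and 27.1-fold.

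The make-up of the family differed between the states. Irgm1 made up 61.4% of the family's reads (95% Clopper-Pearson interval 59.8 to 63.0) in the control normoxic library and 58.0% in the control hypoxic library, but 27.1% and 23.4% in the IFN-γ libraries. Irgm1, Irgm2 and Igtp together gave 94.3% of the reads in each control library and 66.2% and 64.1% with IFN-γ. The other 7 genes rose from 5.71% and 5.68% of the reads to 33.8% and 35.9%. The 3 regulatory genes as a sum were 10.1-fold higher with IFN-γ in each pair, while the other 7 as a sum were 85.2-fold (74.1 to 98.6) and 93.99-fold (82.3 to 107.8) higher. The intervals of these 2 sums lay far apart in both pairs.

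**Figure D3:**
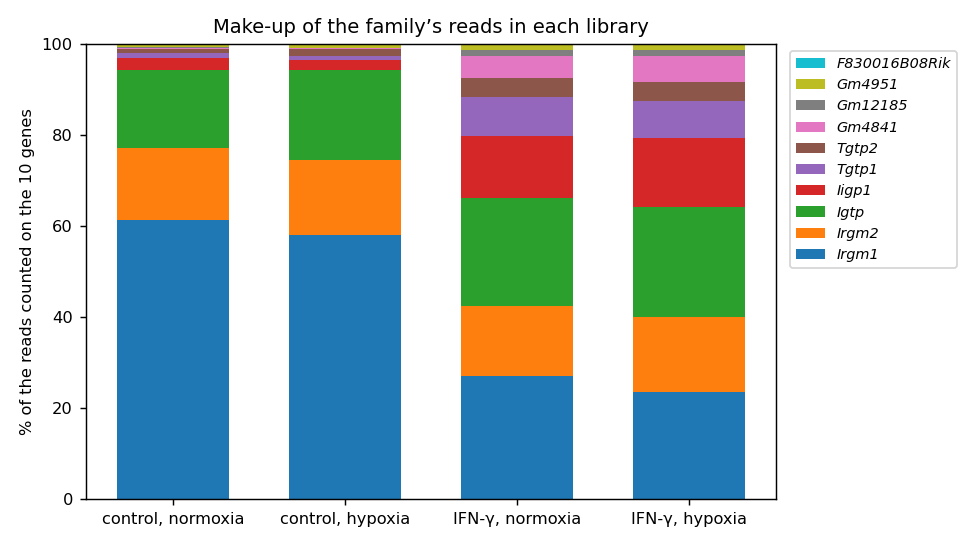
Share of each gene in the reads counted on the 10 genes (vertical axis, percent) in each library. Irgm1, the lowest segment, takes 61.4% and 58.0% without and 27.1% and 23.4% with IFN-γ, where Iigp1, Tgtp1, Tgtp2 and Gm4841 become visible.

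Levels between genes were compared as CPM per kilobase of the longest annotated transcript. Without IFN-γ under normoxia the order was Irgm1 at 16.1, Igtp at 8.54, Irgm2 at 4.44 and Iigp1 at 0.851, with the other 6 genes below 0.4. The counting intervals of these first 4 did not overlap, whereas Tgtp2 (0.360), Tgtp1 (0.358) and Gm4951 (0.273) could not be ordered, nor could Gm4841, Gm12185 and F830016B08Rik each from the next. The control hypoxic library gave the same first 4 genes in the same order, at 17.1, 10.99, 5.30 and 0.816, although there the intervals of Iigp1 and Tgtp2 (0.576) overlapped.

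With IFN-γ the order of the levels changed. Igtp came first at 169.8 CPM per kilobase under normoxia and 199.5 under hypoxia, and Irgm1 second at 102.1 and 102.2. Iigp1 and Irgm2 followed at 63.1 and 62.8 under normoxia and 81.5 and 78.2 under hypoxia, and their intervals overlapped in both libraries. Tgtp1 (43.0 and 48.0), Gm4841 (24.4 and 33.7), Tgtp2 (21.3 and 24.8), Gm4951 (6.49 and 7.16), Gm12185 (4.08 and 4.78) and F830016B08Rik (0.327 and 0.478) completed the order in both libraries. Dividing by the mean transcript length instead moved 13 of the 40 places, since the annotation of Tgtp1 and Tgtp2 holds short transcripts.

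Hypoxia, which did not enter the choice of the genes, was tested in the additive fit with edgeR's quasi-likelihood test over all 13580 genes. It raised 4 of the 10, Irgm2, Igtp, Iigp1 and Gm4841, against 8.21% of all tested genes raised. None of the 10 was lowered, where 6.83% of tested genes were, and no lowered value had an unadjusted p under 0.05 either. Without replicates, the spread in this test is how far a gene's 4 values depart from additivity, pooled over genes, and it does not stand for variation between cultures.

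Igtp rose by 0.28 on the log2 scale with hypoxia (SE 0.0627, adjusted p = 0.000185) and Irgm2 by 0.29 (SE 0.0662, adjusted p = 0.000194). In the control pair the log2 ratio of Igtp was 0.36 (0.21 to 0.52) and in the IFN-γ pair 0.23 (0.20 to 0.27). For Irgm2 these were 0.25 (0.09 to 0.42) and 0.32 (0.27 to 0.36). Both genes were thus higher under hypoxia in both pairs, beyond counting error.

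Gm4841 rose by 0.46 (SE 0.0995, adjusted p = 9.15e-05), the largest of the 4, and Iigp1 by 0.31 (SE 0.0784, adjusted p = 0.00109). For these effectors the reads came almost wholly from the IFN-γ pair, where the log2 ratio of hypoxia to normoxia was 0.46 (0.39 to 0.54) for Gm4841 and 0.37 (0.32 to 0.41) for Iigp1. In the control pair the values were 0.31 (-1.17 to 1.87) and -0.06 (-0.50 to 0.38), so a change without IFN-γ was not detectable at this depth.

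Irgm1 was the exception among the well-counted genes, with 0.04 (SE 0.057, adjusted p = 0.716). Its 2 IFN-γ libraries differed by a log2 ratio of 0.00 (-0.03 to 0.04) and its control libraries by 0.09 (0.00 to 0.17). Tgtp2 missed the threshold at 0.26 (SE 0.0987, adjusted p = 0.0515) and Tgtp1 had 0.14 (SE 0.09, adjusted p = 0.34). In the IFN-γ pair the sum of Tgtp1 and Tgtp2 was higher under hypoxia by 0.18 (0.13 to 0.23). Gm12185 (0.26, adjusted p = 0.256), Gm4951 (0.16, adjusted p = 0.554) and F830016B08Rik (0.46, SE 0.533, adjusted p = 0.645) did not pass.

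The calls with hypoxia depended on the fit. With the same model in DESeq2, Irgm2 (adjusted p = 0.0166) and Igtp (adjusted p = 0.00982) passed and Iigp1 (0.81) and Gm4841 (0.0742) did not, and with IFN-γ left out of the edgeR model none of the 10 did. In that model the IFN-γ change counts as spread: the estimate for Irgm2 was 0.31 with an SE of 1.45 and that for Gm4841 0.46 with an SE of 2.18, so these estimates stayed close to those of the additive fit while their errors grew. Over the alternatives tried, the adjusted p ran from 0.00143 to 0.944 for Irgm2, from 0.0015 to 0.961 for Igtp, from 0.00663 to 0.955 for Iigp1 and from 0.00103 to 0.944 for Gm4841, the highest in each case with IFN-γ left out. In single pairs, with 0.5 counts added, 3 of the 10 were at least 25% higher under hypoxia in the control pair (Igtp, Tgtp2 and Gm12185), where 13.5% of tested genes were. Gm4841, at 8 and 10 control counts, lay just under that limit, and just over it without the added counts. Gm12185 rested on 2 and 6 control counts, and Tgtp1 and Tgtp2 as a sum, at 1.245-fold, stayed under the limit. In the IFN-γ pair 3 were above the limit (Iigp1, Gm4841 and F830016B08Rik), where 13.7% were. F830016B08Rik rested there on 37 and 54 counts, and Irgm2, at 1.245-fold, lay just under.

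**Figure D4:**
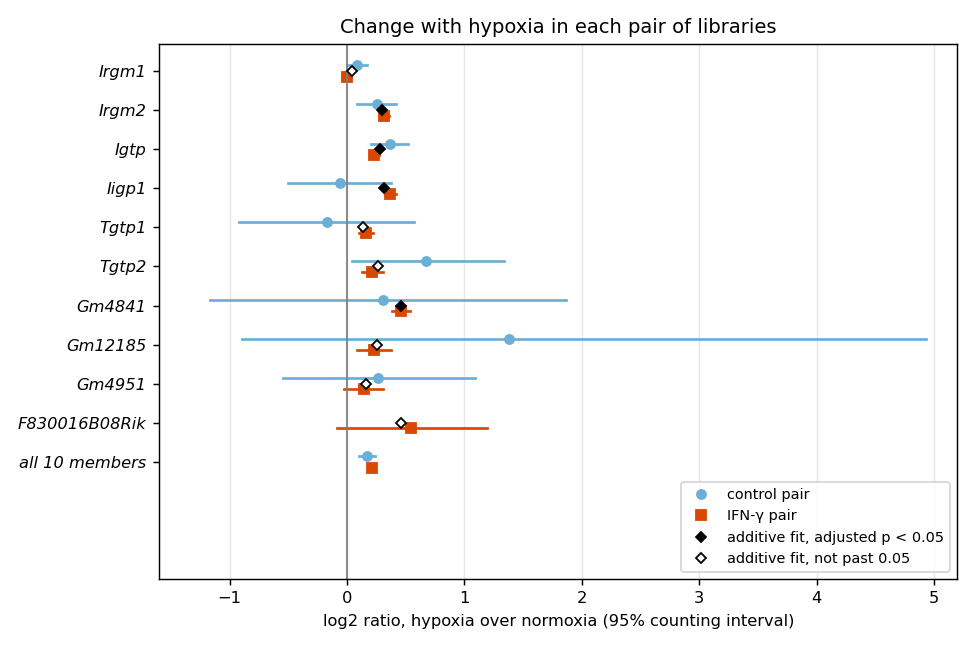
Log2 ratio of hypoxia to normoxia (horizontal axis) in the control pair (circles) and the IFN-γ pair (squares) with 95% counting intervals, and the estimate of the additive fit (diamonds, filled at an adjusted p under 0.05); the control value of F830016B08Rik is left out because 1 and 0 reads were counted. The filled diamonds are Irgm2, Igtp, Iigp1 and Gm4841, between 0.28 and 0.46, and the IFN-γ pair of Irgm1 lies at 0.00.

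The small rise under hypoxia of most of the 10 genes was shared with other IFN-γ-induced genes. In the IFN-γ pair all 10 genes had a log2 ratio above 0, and so did 195 of the 228 other genes raised at least 2-fold by IFN-γ (85.5%). For Irgm1 it was 0.00 (-0.03 to 0.04). The intervals of Gm4951 (-0.02 to 0.30) and F830016B08Rik (-0.08 to 1.19) also included 0. The median log2 ratio was 0.23 for the 10 genes and 0.23 for these 228 (quartiles 0.09 and 0.41), against 0.00 for all tested genes. Of the 228, 59 (25.9%) were raised by hypoxia in the fit and 3 (1.32%) lowered. The summed counts of the family were higher under hypoxia by 0.21 (0.19 to 0.23) in the IFN-γ pair and by 0.17 (0.10 to 0.24) in the control pair.

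Whether the IFN-γ change itself differed between the oxygen levels could not be tested, because 4 libraries leave no spread for that difference. For the sum of the 10 genes the log2 change under hypoxia minus that under normoxia was 0.04 (-0.02 to 0.11). It was -0.08 (-0.18 to 0.01) for Irgm1, 0.06 (-0.11 to 0.23) for Irgm2, -0.13 (-0.29 to 0.03) for Igtp and 0.43 (0.01 to 0.85) for Iigp1. The Iigp1 interval alone of these lay above 0, by a margin of 0.01. Over the 10443 genes that reached 100 counts in each of the 4 libraries, the middle 95% of such differences ran from -0.36 to 0.40, and Iigp1, with fewer than 100 control counts, carries more counting error than those genes.

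The 10 genes lie in 3 clusters on 2 chromosomes of the mouse genome (GRCm38.p6, of which mm10 is the browser name). On chromosome 11, Irgm1 (48865245 to 48871420), Gm12185 (48904656 to 48927182), Tgtp1 (48985329 to 48992246) and Tgtp2 (49057196 to 49064212) stand on the minus strand within 199 kb. Further along, Igtp (58199556 to 58207592) and Irgm2 (58214977 to 58222783) stand on the plus strand within 23.2 kb. Gm4951, Gm4841, F830016B08Rik and Iigp1 lie within 180.6 kb on chromosome 18. The sum of the chromosome 11 genes was 12.0-fold and 11.9-fold higher with IFN-γ under normoxia and hypoxia, and that of the chromosome 18 genes 78.2-fold (65.6 to 94.01) and 100.1-fold (84.1 to 120.0).

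Most neighbours within 200 kb did not pass the test with IFN-γ, and those that did included relatives of the family. In the first cluster 5 of 13 other tested genes were raised, in the second 2 of 9 and on chromosome 18 1 of 4, where 4.76% of all tested genes were. Gm5431, Olfr56, Olfr1396 and BC023105 had at most 5 counts in each control library and passed the filter through their IFN-γ reads. Nothing is therefore read from these counts of raised neighbours. None of the tested neighbours was lowered by edgeR's test. Ifi47 (also Irgd), which encodes IRG-47, belongs to the same family but is not among the 10 genes. It had 128 and 145 control counts and 2992 and 3775 with IFN-γ, a fitted log2 change of 4.64. Gm12250, the gene of Irgb10 and likewise not among the 10, had 12 and 10 control counts and 1012 and 1339 with IFN-γ. Its fitted log2 change was 6.73. Genes near the clusters were picked for naming after their values were seen, so these values are a description without a test.

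The relatives 9930111J21Rik1 (7, 17, 64 and 76 counts, with the control libraries first and normoxia before hypoxia in each pair) and Gm5431 (2, 2, 19 and 24) were raised at far lower counts. BC023105, beside the chromosome 18 genes, had 0 and 2 control counts and 144 and 167 with IFN-γ. The raised olfactory receptor genes Olfr56 (5, 2, 75 and 98) and Olfr1396 (0, 0, 17 and 19) lie beside Ifi47, and the annotated Olfr56 gene spans Ifi47 and, on the other strand, Tgtp1 and Tgtp2. Larp1, an RNA-binding protein gene within 200 kb of Igtp, had a fitted log2 change of 0.32. Rack1 (-0.02, adjusted p = 0.939) and Dctn4 (-0.03, adjusted p = 0.953) are 2 of the neighbours that did not pass.

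The pathway that turns the family on was followed with a list of 20 IFN-γ signalling genes, 19 of them tested. IFN-γ raised 13 and lowered 1, with a list median of 0.79 on the log2 scale against -0.01 for all tested genes. Of all 13580 tested genes 4.76% were raised and 149 genes lowered. Ciita, the activator of MHC class II genes, rose by 3.97 (SE 0.347, adjusted p = 3.03e-28), and Nlrc5, the activator of MHC class I genes, by 2.66. Batf2, an AP-1 type factor, went from 1 and 0 to 193 and 258 counts, and it passed the filter through its IFN-γ reads alone. The lowered gene was Ifngr1, a chain of the IFN-γ receptor, at -0.25 (adjusted p = 0.0308).

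With hypoxia 5 of the 19 rose and 1 fell, with a list median of 0.05, where 8.21% of all tested genes were raised and 6.83% lowered. The raised genes were Jak2 (0.30, adjusted p = 0.000921), Jak1 (0.29, adjusted p = 1.01e-05), Stat2 (0.25, adjusted p = 0.000448), Ifngr1 (0.24, adjusted p = 0.0167) and Irf1 (0.24, adjusted p = 0.000146), and the gene that fell was Cebpb, at -0.25 (adjusted p = 0.00343). Irf1 had 3770 and 4422 control counts and 20118 and 23759 with IFN-γ.

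The guanylate-binding proteins, larger GTPases that act beside the immunity-related GTPases on the vacuole, were the closest family for comparison. Of 11 genes 9 were tested, and IFN-γ raised all 9, with a list median of 4.80, where 4.76% of all tested genes were raised. The list was chosen with earlier results of these data known. Gbp8 (4 and 0 control counts) and Gbp10 (1 and 2) passed the filter through their IFN-γ reads. The IFN-γ calls of this list are therefore a description, from which nothing is read. Among the 9 were Gbp4 (5.67), Gbp5 (5.24), Gbp8 (4.88) and Gbp2, which had the most reads (597 and 846 control counts and 23153 and 29245 with IFN-γ). Hypoxia raised 3 of the 9, Gbp7 (0.42, adjusted p = 1.4e-07), Gbp2 (0.40, adjusted p = 6.25e-10) and Gbp3 (0.19, adjusted p = 0.0234), with a list median of 0.38, where 8.21% of all tested genes were raised. The sum of the 11 genes ran from 1775 and 2221 counts in the control libraries to 41155 and 51532 with IFN-γ, below the sum of the 10 immunity-related GTPases in each of the 4 libraries.

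Autophagy was followed with 15 genes, among them Becn1, Ulk1 and Sqstm1 beside those of the conjugation system. That system brings GTPases of the family to vacuoles in mouse cells. With IFN-γ, edgeR called none of the 15 in either direction, 1 had an unadjusted p under 0.05, and DESeq2 called 0 as well. Their median was -0.07. Hypoxia raised Gabarap alone, an ATG8-type protein gene (0.30, adjusted p = 0.017 in edgeR), where 8.21% of all tested genes were raised. DESeq2 called none of the 15 with hypoxia. Among 17 other genes of the family and of the related very large GTPases, a list without Ifi47 and Gm12250, 11 were in the table and 6 tested. IFN-γ raised 5 of the 6, where 4.76% of all tested genes were raised. Gm4070, Gvin1 and Gm5431 had at most 2 counts in each control library and passed the filter through their IFN-γ reads. Their calls were thus fixed by the filter, and nothing is read from the count of 5. The 5 were Gm5431, 9930111J21Rik1, Gm8995 (2.08, adjusted p = 2.26e-07), Gm4070 (0 and 0 to 28 and 26 counts) and Gvin1 (0 and 0 to 21 and 20 counts). The sixth, Irgq, a distant relative, had -0.13 with IFN-γ (adjusted p = 0.578) and was raised by hypoxia in edgeR (0.33, adjusted p = 0.00307). DESeq2 called none of the 6 with hypoxia.

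The genes outside the family whose pattern was nearest to its sum were sought among the 11480 genes averaging at least 50 counts per library, by the Euclidean distance of centred log2 CPM over the 4 libraries. Gbp3 was nearest at a distance of 0.0542, with 727, 789, 9862 and 11552 counts. Ciita (0.264), Gbp7 (0.311), the non-coding RNA gene Gm12216 (0.501) and Zbp1 (0.542), a sensor of Z-form nucleic acids, followed. With 4 points each, likeness here is set almost wholly by the size of the IFN-γ change, and with a minimum average of 200 counts 3 of these 5 stayed among the nearest 5.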

How the data were processed

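RNA-seq was performed on 1 library for each of 4 conditions of MC38 cells. Per the labels, mRNA was captured by its poly-A tail, strand was kept, and both ends of each fragment were read on a DNBSEQ instrument. Reads were aligned with HISAT2 according to the methods, and the submitters' processing notes name featureCounts and mm10. The authors deposited whole-number counts per NCBI gene ID, neither normalized nor filtered. The annotation and the counter's settings for strand and for reads matching several genes are not given in the sources used here. Symbols were matched for 25275 of 27179 IDs.

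edgeR 4.0.16 in R 4.3.3 was fitted to the whole table as the quasi-likelihood test of an additive model of hypoxia and IFN-γ, with TMM factors (0.993 to 1.01), filterByExpr and Benjamini-Hochberg adjustment at 0.05. The fit had 1 residual degree of freedom per gene and a coefficient of variation of 4.71%. Ratios between single libraries used TMM-scaled counts with 0.5 counts added for log2 values, and 95% Clopper-Pearson intervals of the 2 counts. The difference of changes had a Poisson interval. Folds against a count of 0 were taken over 3 counts. Words of 31 bases came from GENCODE M21 transcripts (GRCm38.p6), and a gene sharing at least 20% was called uncertain.

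All 10 members were named. Of each list the count called and at most 4 members with the largest change among those called in a direction were named, apart from the called genes of IFN-γ signalling under hypoxia and the genes near the clusters, which were added after their values were seen. The values of 1 listed gene are not reported here. The genes, lists and tests were chosen with earlier results of these data known. Alternatives were other scalings, DESeq2 1.42.0, other filters, a model without the other stimulus, 5 counts added, other sums and lengths. Scripts were tested on simulated data. Analysis used Python 3.11.15, pandas 2.3.3 and SciPy 1.17.1.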

Additional observations from a re-analysis of the deposited data

Results flagged for a closer look

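For 2 of the genes with more than 3 counts in both control libraries, the hypoxic library was lower than the normoxic one without IFN-γ and higher with it. These opposite directions are why the 2 genes are listed. F830016B08Rik had the same directions, but on 1 and 0 control counts and on 37 and 54 with IFN-γ. For Iigp1 the log2 hypoxia change in the IFN-γ pair minus that in the control pair was 0.43. For Tgtp1 it was 0.33. Neither difference was tested, since each pair has 1 library per side. The control values rested on 92 and 88 counts and on 35 and 31 counts, and both control intervals included 0. For Tgtp1 and Tgtp2 as a sum, both pairs were higher under hypoxia (0.31 and 0.18).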

How the results depend on the processing

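The hypoxia calls moved most. In place of 4 of the 10 genes, DESeq2's Wald test called 2, the edgeR model of 2 libraries against 2 called 0, and a required log2 change of at least 1 left 0. Over all tested genes hypoxia then raised 362 with DESeq2 (3.76% of 9631) and 150 with 2 against 2 (1.1% of 13580), in place of 1115 (8.21% of 13580). No filter gave 773 (4.11% of 18812). DESeq2 gave F830016B08Rik no adjusted p with hypoxia, so the 2 genes it called are not out of all 10. With other scalings or without the filter the count among the 10 genes was 4, and with at least 10 counts in every library 3, where Gm4841 was not tested. For the IFN-γ signalling list DESeq2 called 3 with hypoxia in place of 6, and 13 with IFN-γ in place of 13 raised and 1 lowered. For the guanylate-binding proteins it called 2 with hypoxia in place of 3 and 7 with IFN-γ in place of 9. For the autophagy genes it called 0 with hypoxia in place of 1. For the other family and very large GTPases it called 0 with hypoxia in place of 1 and 4 with IFN-γ in place of 5. Of 13580 tested genes IFN-γ raised 353 with DESeq2 (2.6%) and 239 with 2 against 2 (1.76%), in place of 647 (4.76%). Each of the 10 genes that was tested stayed among the raised genes. Leaving Irgm1 out of the family sum moved its log2 change with IFN-γ from 3.85 to 4.77 under normoxia and from 3.89 to 4.76 under hypoxia, and its hypoxia change from 0.21 to 0.28 in the IFN-γ pair and from 0.17 to 0.29 in the control pair. Leaving out Tgtp1, Tgtp2 and Gm12185 gave 3.66 and 3.71 with IFN-γ. The cause of these shifts was not tested, beyond the removal of those genes. The difference of the IFN-γ changes of the sum, 0.04, was -0.01 without Irgm1 (-0.11 to 0.10), and both intervals include 0. With total counts and likewise with DESeq2 size factors, all 50 values of the 10 genes (4 single-pair changes and the difference of the IFN-γ changes for each) stayed within their counting intervals, and with 5 counts added 49 of 50 did. No paired analysis was possible because each condition had 1 library, and leaving out a library leaves no spread. Depth limits the control values of Gm4841, Gm12185 and F830016B08Rik, at 10 counts or fewer.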
